A study of Homo sapiens with 20 samples.

Results

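The accessibility of 10 genes of poly(ADP-ribose) metabolism was followed through the peak lists of an ATAC-seq series: the enzymes PARP1, PARP2, PARP3 and TNKS, the cofactor HPF1, the hydrolases PARG and ADPRS, and the repair partners XRCC1, LIG3 and POLB. The genes were chosen by name for their part in this chemistry, with earlier results of these data known. The rule itself uses no measured value, and the genes are 10 of 20037 protein-coding genes in the RefSeq table used. For each, all intervals in the gene and 20 kb either side were collected. ATAC-seq marks open chromatin by the insertion of sequencing adapters with a transposase. The cells were LOVO and RKO, established human colon adenocarcinoma lines, with a control hairpin (shControl) or a hairpin against METTL3 (shMETTL3), which encodes the catalytic subunit of the RNA N6-methyladenosine writer. Cells of either hairpin were left untreated or received olaparib, a PARP inhibitor. The labels list 20 samples, with 4 of untreated shControl per line, 2 of them labelled batch2, and 2 of each other combination. The sources used here do not give the dose and time of olaparib, the number of hairpins or whether the lines were clonal.

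The processed data are 10 lists of intervals, 5 per line. A list is named for a whole group, so replicate error cannot be estimated and no test was possible. Untreated shControl has 2 lists per line, and their difference was the only measure of spread available. Which of them holds the samples labelled batch2 is unknown. The scored lists (untreated shControl and both olaparib groups) give a score for each interval, and the merged lists (untreated shControl and untreated shMETTL3) give positions only. Peak names in the scored lists carry the label rep1, so whether these lists hold more than the first replicate is unknown. The lists held from 6916 intervals (RKO shMETTL3) to 51462 (LOVO shMETTL3 with olaparib), and in both lines the untreated shMETTL3 list was the shortest. The depth behind them is unknown, so a missing interval shows that no peak was listed and not that chromatin was closed. Of 10 colon epithelial marker genes, 4 to 9 had an interval at the start site in the LOVO lists. RKO had 3 (EPCAM, KRT18 and CDX2) in 4 lists and none in untreated shMETTL3. Of all protein-coding genes, 35.1 to 57.3% had such an interval in the LOVO lists. The share was 46.7 to 54.2% in those 4 RKO lists and 24.6% in RKO shMETTL3. In RKO these markers thus had an interval less often than genes as a whole. Among the other markers none of 3 endothelial genes was open in any list, at most 2 of 5 leukocyte genes were, and at most 2 of 5 mesenchymal genes.

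A gene is called open here when an interval overlapped the 1000 bp either side of its RefSeq start. For POLB and TNKS, on chromosome 8, the table of starts had no entry, so both ends of the gene were examined, and every such interval lay at the left-hand end. An interval or start site is called lost when it was in the reference list and had no partner of at least 1 bp in the other list. It is called gained in the opposite case.

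Poly(ADP-ribose) polymerases use NAD to attach ADP-ribose to proteins. PARP1 and PARP2 bind DNA breaks, HPF1 completes their active site so that serine residues are modified, PARG cuts the polymer, and ADPRS (also called ARH3) removes the last ADP-ribose from serine. XRCC1 is the scaffold that is drawn to the polymer and brings DNA ligase III (LIG3) and DNA polymerase beta (POLB) to single-strand breaks. Olaparib blocks the catalytic site of PARP1 and PARP2 and holds the enzymes on DNA.

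Promoters were chosen by a rule: first members lost or gained in the same direction in both lines, then PARP1 and PARP2. HPF1 was the only member that lost its start-site interval in both lines with shMETTL3. The promoters of HPF1, and of PARP1 and PARP2, the main targets of olaparib, are shown. Each is the RefSeq sequence on GRCh38, the assembly that hg38 names, from 250 bases before to 50 bases after the start, written 5′ to 3′ on the strand of the gene. They lie at chr4:169757895-169758194 (minus strand), chr1:226408044-226408343 (minus strand) and chr14:20343385-20343684 (plus strand). Capitals mark matches, on either strand, to the SP1 box GGGCGG, the ETS core CGGAAG, the CCAAT box CCAAT, the NRF1 core GCATGCGC or the E box CACGTG, and no matches overlapped.
HPF1: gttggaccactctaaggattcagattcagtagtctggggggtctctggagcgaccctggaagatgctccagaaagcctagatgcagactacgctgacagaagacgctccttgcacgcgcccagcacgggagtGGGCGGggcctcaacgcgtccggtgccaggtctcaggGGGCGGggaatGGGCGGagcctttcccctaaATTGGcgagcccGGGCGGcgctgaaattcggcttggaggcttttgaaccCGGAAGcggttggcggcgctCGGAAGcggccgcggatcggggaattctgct
PARP1: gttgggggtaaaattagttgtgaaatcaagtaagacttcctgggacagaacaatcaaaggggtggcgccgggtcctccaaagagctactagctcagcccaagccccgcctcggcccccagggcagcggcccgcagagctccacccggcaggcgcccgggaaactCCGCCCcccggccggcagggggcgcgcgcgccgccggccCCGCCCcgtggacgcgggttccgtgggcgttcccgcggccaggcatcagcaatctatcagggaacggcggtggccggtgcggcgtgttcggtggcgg
PARP2: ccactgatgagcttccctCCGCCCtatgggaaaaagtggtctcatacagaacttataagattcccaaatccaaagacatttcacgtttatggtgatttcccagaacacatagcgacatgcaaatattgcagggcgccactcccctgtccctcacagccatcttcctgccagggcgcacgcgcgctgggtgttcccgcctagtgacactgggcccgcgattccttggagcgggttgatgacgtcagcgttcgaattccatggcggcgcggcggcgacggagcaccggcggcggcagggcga

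The HPF1 promoter held 4 SP1 boxes, 2 ETS cores and 1 CCAAT box. At least 4 SP1 boxes were in 12.9% of 15842 promoters of protein-coding genes. The PARP1 promoter held 2 SP1 boxes and the PARP2 promoter 1, at position -232 counted from the start. Over the 8 members with a promoter in the table, an SP1 box was in 6 (58.5% of all promoters), an ETS core in 5 (25.6%), a CCAAT box in 4 (36.4%), an E box in 1 (8.88%) and an NRF1 core in none (4.26%). These matches are descriptions of letters and not of bound sites. The GC content of the 8 promoters ranged from 58.3% (PARP2) to 70.0% (PARP1), beside a median of 62.7% over all promoters.

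In the untreated controls 9 of the 10 genes were open in each of the 4 control lists, PARG being the exception. Over all protein-coding genes 46.7 to 54.8% were open in these lists. PARP1, PARP2, PARP3, POLB and TNKS were open in all 10 lists, as were 3924 of all genes (19.6%). In the plot of intervals by distance, the marks of 9 genes line up at the start, and the remaining marks are scattered over 23 sites, 8 of them at a tabulated start of a neighbouring gene.

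**Figure D1:**
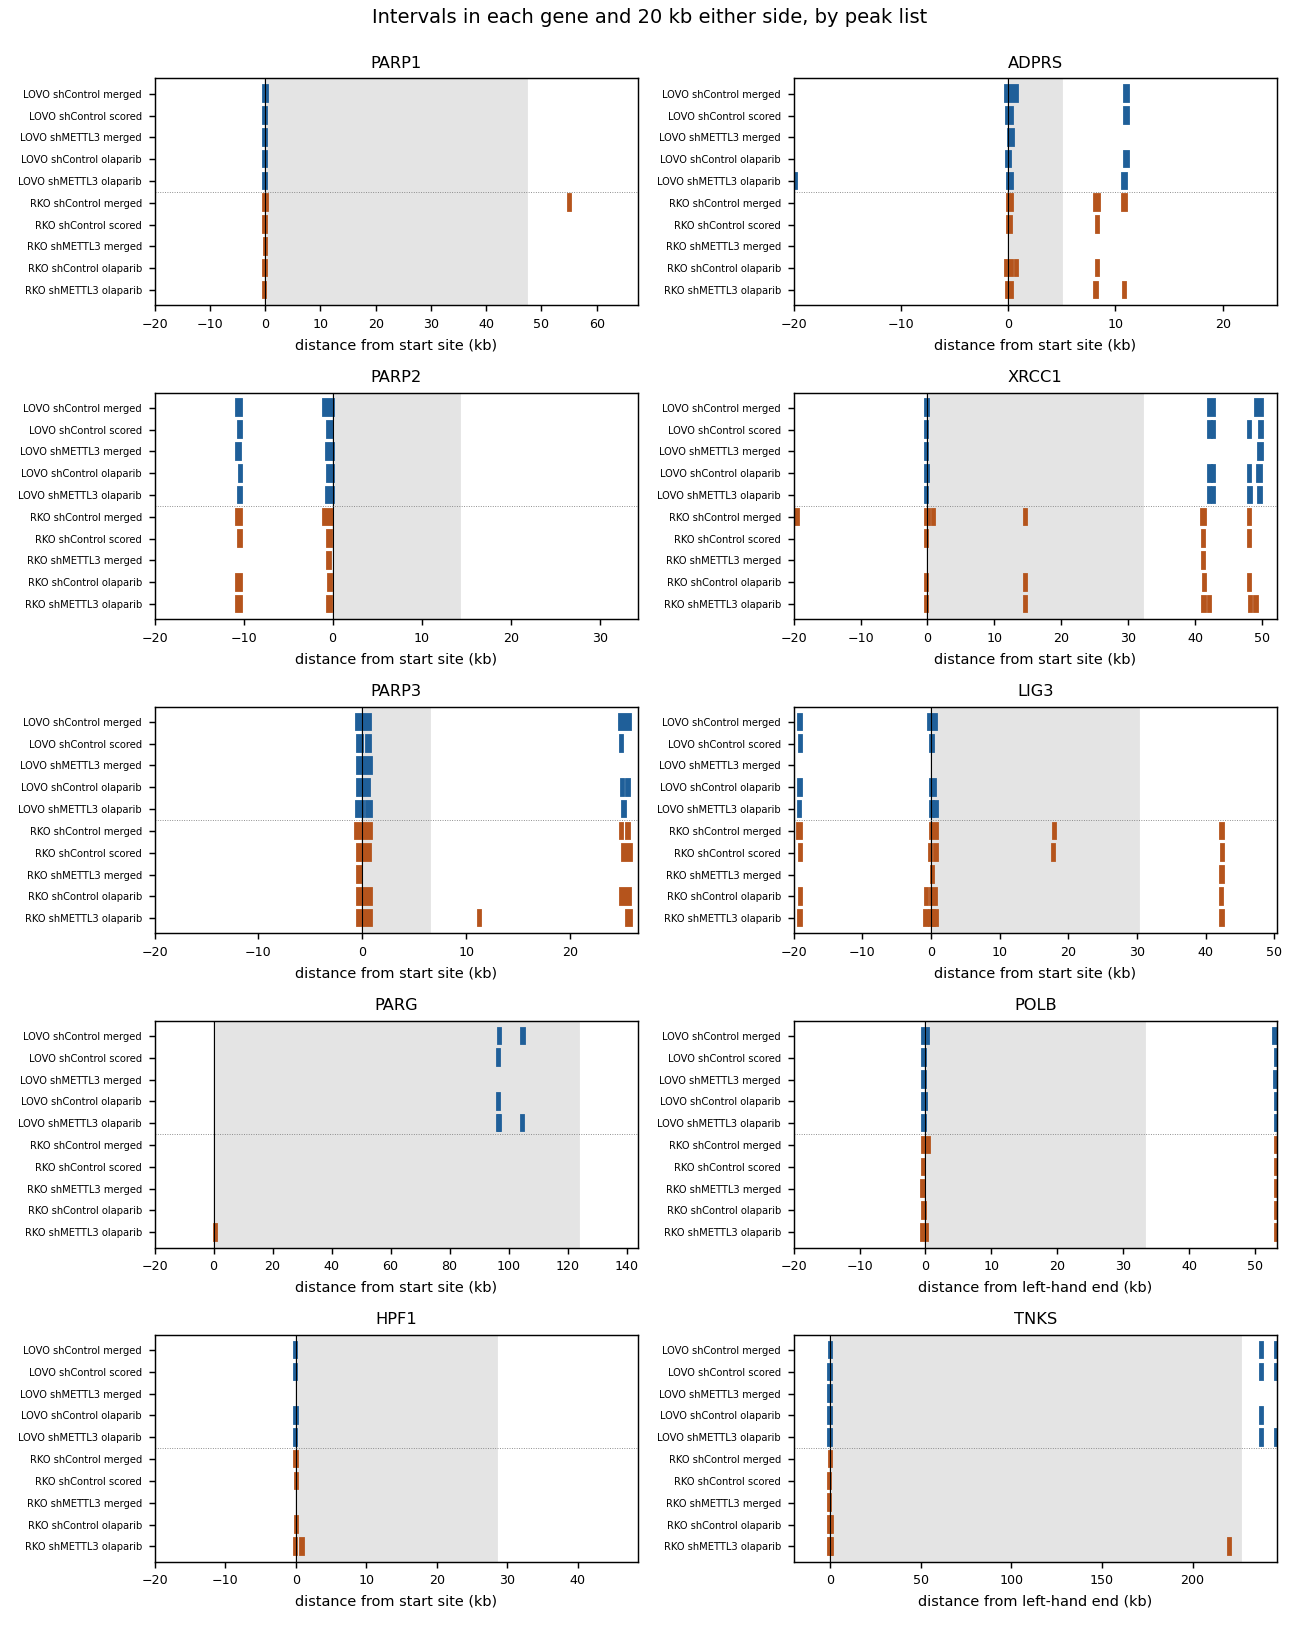
Intervals in each of the 10 genes and 20 kb either side, by list. The horizontal axis is the distance from the start site in kb (from the left-hand end for POLB and TNKS), grey marks the gene, blue rows are LOVO and orange rows RKO, and short intervals are drawn wider than they are so that they can be seen. A column of marks at 0 is present for 9 genes in most lists and missing for PARG, and the row of untreated shMETTL3 is the emptiest in each line.

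PARP1, which makes most of the polymer after damage, lies on chromosome 1 from 226360691 to 226408093 on the minus strand. Its start-site interval in LOVO measured 891 bp (merged control), 707 bp (scored control), 324 bp (untreated shMETTL3), 605 bp (olaparib, shControl) and 680 bp (olaparib, shMETTL3). In that order RKO gave 834, 382, 281, 770 and 510 bp. It was narrowest in untreated shMETTL3 in both lines. The position shifted too: in RKO shMETTL3 the interval ran from 226407807 to 226408087, inside the gene, and covered the last 44 of the 300 promoter bases shown above, beside 300 and 271 in the controls. In LOVO shMETTL3 it covered 211 bases. Its scores were modest, at percentile 23.5 to 26.9 among open genes of the same list in LOVO and 12.4 to 33.6 in RKO. Apart from the start, a single further interval of 220 bp lay 55.0 kb downstream of the start in the merged RKO shControl list.

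PARP2, the second DNA-break-activated polymerase, lies on chromosome 14 from 20343635 to 20357904. Its intervals lay mainly before the start, over RPPH1, the RNA component gene of ribonuclease P, at 20343071 to 20343411. All 341 bases of RPPH1 were covered in 8 lists, 333 in RKO shControl with olaparib and 254 in RKO shMETTL3. In LOVO the PARP2 start-site interval measured 1188 and 723 bp in the merged and scored controls, 941 bp in shMETTL3, and 757 and 910 bp with olaparib in shControl and shMETTL3. In RKO it measured 1179, 531, 254, 470 and 593 bp. The RKO shMETTL3 interval ended 262 bp before the PARP2 start and covered none of the 300 promoter bases, whereas in LOVO shMETTL3 all 300 were covered. PARP2 thus counts as open in RKO shMETTL3 only through the interval within RPPH1. Its score stood at percentile 92.3 to 98.5 of open genes in all 6 scored lists, and reads over RPPH1 and PARP2 cannot be told apart there. A further site at -10.5 kb, at the start of CCNB1IP1, was in 9 lists and missing from RKO shMETTL3.

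PARP3, which adds single ADP-ribose units at double-strand breaks, lies on chromosome 3 from 51942363 to 51948867. It shares its start region with RRP9, a ribosomal RNA processing gene that begins 459 bp away on the other strand. The bases covered within 1000 bp of its start were the most of the 10 genes in every list. In LOVO they numbered 1521 and 1119 in the merged and scored controls, 1396 in shMETTL3, and 1210 and 1331 with olaparib in shControl and shMETTL3. In RKO they numbered 1577, 1334, 464, 1398 and 1415. The RKO shMETTL3 value was the lowest, yet it was still the largest of any member in that list. An interval 25.3 kb downstream, at the start of PCBP4, was in 8 lists and missing from untreated shMETTL3 in both lines.

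TNKS (tankyrase), which acts at telomeres and in the turnover of AXIN, lies on chromosome 8 from 9555912 to 9782346. At its left-hand end 880 and 457 bp were covered in the merged and scored LOVO controls, 459 bp in shMETTL3, and 440 and 451 bp with olaparib. In RKO the values were 868, 503, 302, 842 and 653 bp. The score stood at percentile 78.8 to 99.6 in LOVO and 82.5 to 97.7 in RKO, and TNKS and PARP2 held the top ranks of the members in 5 of the 6 scored lists. In LOVO shControl with olaparib POLB (85.4) stood between them. Beyond the right-hand end, intervals 238 and 246 kb from the left-hand end were in 4 and 3 LOVO lists and in no RKO list, and neither was in LOVO shMETTL3.

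**Figure D2:**
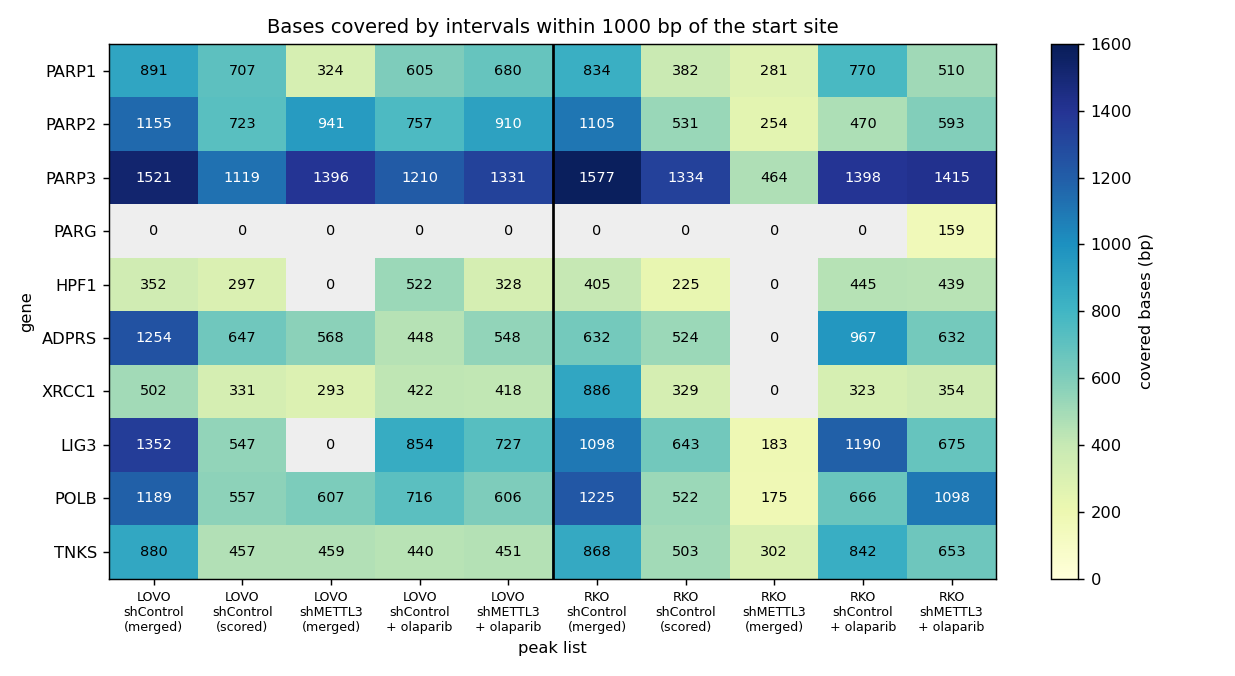
Bases covered by intervals within 1000 bp of the start site (left-hand end for POLB and TNKS), for the 10 genes (rows) in the 10 lists (columns, LOVO left of the line and RKO right of it). Grey cells are 0, which fill 9 of 10 cells of PARG and the untreated shMETTL3 cells of HPF1 in both lines, of LIG3 in LOVO and of ADPRS and XRCC1 in RKO.

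HPF1, the cofactor, lies on chromosome 4 from 169729470 to 169757944, and the long noncoding RNA LOC107986240 starts 119 bp away on the other strand. It had a start-site interval in every list except the untreated shMETTL3 lists of both lines, which held no interval in the gene or within 20 kb of it. In LOVO the interval measured 352 and 297 bp in the merged and scored controls, and 522 and 328 bp with olaparib in shControl and shMETTL3. In RKO it measured 405 and 225 bp in the controls and 445 bp in shControl with olaparib, and 2 intervals of 239 and 219 bp were listed in shMETTL3 with olaparib. Among open genes of the same list its covered bases stood at percentile 4.24 and 17.8 in the merged and scored LOVO controls, and at 51.0 and 18.8 with olaparib in shControl and shMETTL3. In RKO they stood at 9.71, 11.8, 29.7 and 29.1. Its score in the scored control stood at percentile 34.7 in LOVO and 4.08 in RKO. In the RKO scored control the 225 bp lay inside the gene and covered none of the promoter bases shown above, beside 197 in the merged control and 157 in shControl with olaparib. The pattern of presence over the 10 lists was shared with 1129 other protein-coding genes (5.63%) and with none of the 31 related genes examined below.

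PARG, the glycohydrolase, lies on chromosome 10 from 49818279 to 49942027. Its start was open in 1 list of 10, RKO shMETTL3 with olaparib, through an interval of 159 bp with a score of 4.0 (percentile 2.05) that was centred 588 bp inside the gene and touched none of the promoter bases. TIMM23B starts 26 bp away on the other strand. The RefSeq table also lists PARGP1, a transcribed pseudogene of PARG, at 45854835 to 45972428 on the same chromosome. PARG is therefore reported as uncertain, and the part of the copy in the missing start-site interval was not tested. Within the gene, intervals 96.9 and 105 kb from the start were in 4 and 2 LOVO lists and in no RKO list, and neither was in LOVO shMETTL3. In the scored LOVO control the first measured 157 bp with a score of 11.3.

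ADPRS, the serine ADP-ribosylhydrolase, lies on chromosome 1 from 36088892 to 36093932. In LOVO 1254 and 647 bp were covered at its start in the merged and scored controls, 568 bp in shMETTL3, and 448 and 548 bp with olaparib. In RKO the controls had 632 and 524 bp, shMETTL3 none, and the olaparib lists 967 and 632 bp. RKO shMETTL3 held no interval in the gene or within 20 kb. A pair of sites after the gene, both within COL8A2, differed between the lines: the one 8.29 kb from the start was in 4 RKO lists and no LOVO list, and the one 11.0 kb away was in 4 LOVO and 2 RKO lists.

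XRCC1, the scaffold, lies on chromosome 19 from 43543311 to 43575527. In LOVO 502 and 331 bp were covered at its start in the controls, 293 bp in shMETTL3, and 422 and 418 bp with olaparib. In RKO the values were 886 and 329 bp in the controls, 0 in shMETTL3, and 323 and 354 bp with olaparib. The score stood at percentiles 90.4, 74.7 and 92.6 in LOVO and 47.9, 77.5 and 57.7 in RKO (scored control, olaparib in shControl, olaparib in shMETTL3), so the lines overlapped. In RKO shMETTL3 the start-site interval was lost, but an interval of 239 bp remained 41.3 kb downstream, at the start of ZNF575. That site was in all 5 RKO lists and no LOVO list, while its neighbour 42.5 kb downstream was in 4 LOVO lists and 1 RKO list. An interval inside the gene, 14.6 kb from the start, was in 3 RKO lists only.

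LIG3, the nuclear and mitochondrial ligase, lies on chromosome 17 from 34980512 to 35010872. In LOVO 1352 and 547 bp were covered at its start in the controls, 0 in shMETTL3, and 854 and 727 bp with olaparib. In RKO the values were 1098, 643, 183, 1190 and 675 bp. The merged LOVO control interval was wide (percentile 89.5), although its score in the scored control was low (percentile 8.67). In RKO shMETTL3 the remaining 183 bp lay inside the gene and touched none of the promoter bases. In RKO shMETTL3 with olaparib, 3 of the 4 intervals there carried the same peak name and score, so that 1 listed peak appeared as 3 pieces. The site at -19.1 kb, at the starts of CCT6B and ZNF830, was in 8 lists and missing from untreated shMETTL3 in both lines. A site 42.4 kb downstream, over RFFL, was in all 5 RKO lists and no LOVO list, with scores of 13.1, 16.4 and 17.3 in the scored control and the olaparib lists of shControl and shMETTL3.

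POLB, the gap-filling polymerase, lies on chromosome 8 from 42338494 to 42371808. At its left-hand end 1189 and 557 bp were covered in the LOVO controls, 607 bp in shMETTL3, and 716 and 606 bp with olaparib. In RKO the values were 1225, 522, 175, 666 and 1098 bp. A second interval 53.4 kb to the right, over the adjoining ends of DKK4 and VDAC3, was in all 10 lists. Whether it lies at the start of either neighbour was not examined, since the table of starts has no entry on this chromosome.

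**Figure D3:**
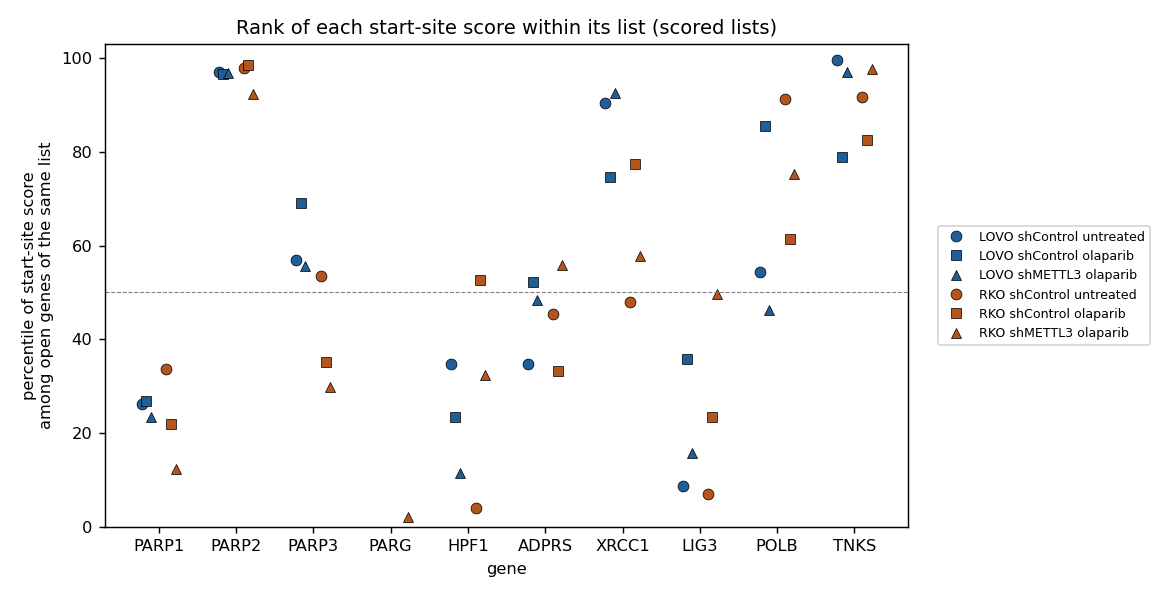
Percentile of each gene's highest start-site score among the open genes of the same list (vertical axis), for the 10 genes (horizontal axis) in the 6 scored lists; blue is LOVO, orange RKO, and the symbol gives the group, with a dashed line at percentile 50. PARP2 stands at 92.3 or above in all 6 lists, PARP1 at 33.6 or below, and PARG has 1 point, at 2.05.

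Untreated shMETTL3 was set against untreated shControl among the merged lists, to ask what the METTL3 hairpin goes with at these genes. In LOVO, HPF1 and LIG3 lost the start-site interval, 2 of 9 open genes, beside 31.0% of all open genes. In RKO, HPF1, ADPRS and XRCC1 lost it, 3 of 9, beside 54.4%. Both shares of the members were below those of all genes, and with 9 genes they are read as counts only. No member was gained, and PARG stayed closed. With the scored control as reference the same genes were lost, 2 of 9 in LOVO and 3 of 9 in RKO.

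Start sites that remained were narrower. In LOVO all 7 genes open in both lists had fewer covered bases with shMETTL3, with a median ratio of 0.522 (0.364 for PARP1 to 0.918 for PARP3), beside a median of 0.689 over 6953 genes. In RKO all 6 did, with a median ratio of 0.262 (0.143 for POLB to 0.348 for TNKS), beside 0.322 over 4919 genes. Over all genes the upper quartile of the ratio was 0.833 in LOVO and 0.449 in RKO, so most genes were narrower too. Counted over the 300-base promoters in place of the wider windows, 5 of 7 members lost their overlap in RKO (PARP2, HPF1, ADPRS, XRCC1 and LIG3), beside 58.9% of all genes, and 2 of 7 in LOVO (HPF1 and LIG3), beside 31.3%. Of the 8 members with a promoter in the table, PARP1 and PARP3 kept promoter bases under an interval in RKO shMETTL3.

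Of all intervals in the 10 genes and 20 kb either side, 10 of 20 were kept in LOVO (50%, 95% exact binomial interval 27.2 to 72.8) and 9 of 25 in RKO (36.0%, 18.0 to 57.5). Around all protein-coding genes 49.8% and 25.0% were kept. These intervals cover counting error only. Every shMETTL3 interval near the 10 genes lay on a control interval. For this count and the next, the share around all genes was not computed. Away from the start sites 11 control intervals in LOVO and 15 in RKO faced 3 in each shMETTL3 list: the sites at CCNB1IP1, ETHE1 and VDAC3 in LOVO, and those at ZNF575, RFFL and VDAC3 in RKO. The whole shMETTL3 lists were shorter too, 16417 against 33474 intervals in LOVO and 6916 against 27978 in RKO. In lists of equal number, with the control cut to its widest intervals, the start site of HPF1 was not among the control intervals, 1 of 7 genes was lost in LOVO (LIG3), beside 26.8% of all genes, XRCC1 was gained, beside 4.01%, and 0 of 6 were lost in RKO, beside 44.6%. With cover of 50% of the control interval required, all 9 open members counted as lost in RKO, beside 91.2% of all genes, and 4 of 9 in LOVO, beside 45.0%. Cut at the median width, the control lists no longer held the HPF1 interval, and the members lost were PARP1, TNKS and LIG3 in LOVO (3 of 7, all genes 41.6%) and ADPRS, XRCC1, LIG3 and POLB in RKO (4 of 8, all genes 70.2%). Against the merged controls, the loss of HPF1 in both lines therefore rests on control intervals narrower than the median of their lists. In the scored controls the HPF1 interval measured 297 bp in LOVO, beside a list median of 288 bp. In RKO it measured 225 bp, beside a list median of 297 bp. The part of depth in these losses was not tested.

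**Figure D4:**
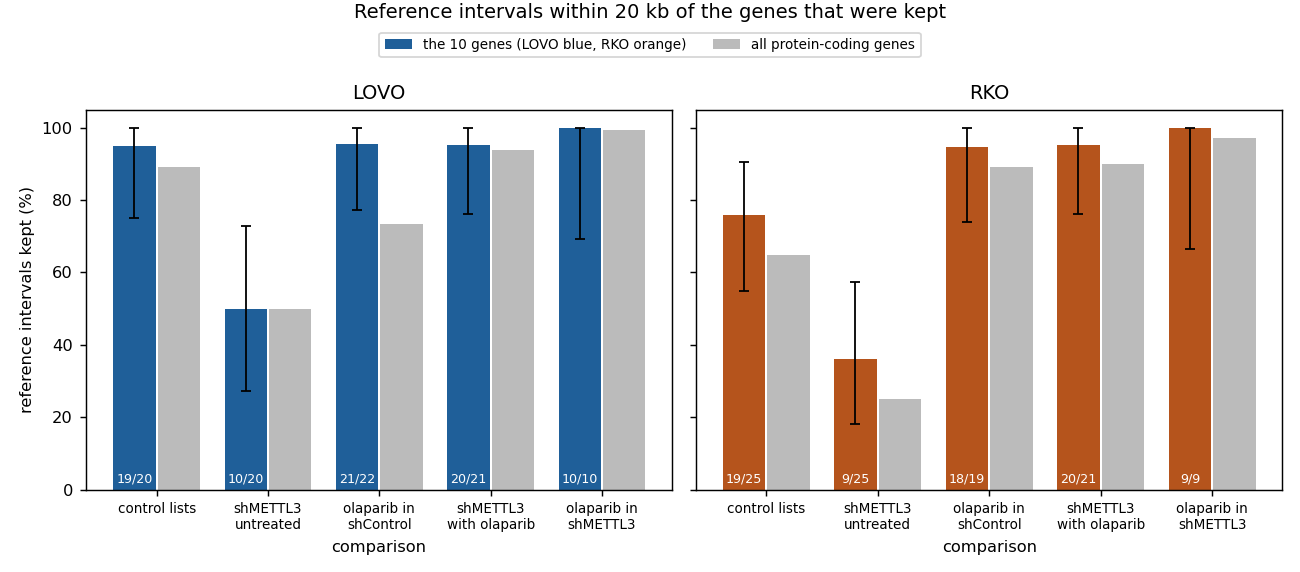
Share of reference intervals in the genes and 20 kb either side that had a partner in the other list (vertical axis, %), for 5 comparisons (horizontal axis) in LOVO (left) and RKO (right). Coloured bars are the 10 genes with the 95% exact binomial interval and the count, and grey bars are all protein-coding genes. The untreated shMETTL3 bars are the lowest in both lines, at 50% and 36.0%.

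The 2 untreated control lists of each line were compared as a measure of spread; the merged list is also the reference above, so the comparisons share it. No member lost its start site in either line, 0 of 9 in LOVO and 0 of 9 in RKO, beside 2.81% and 14.4% of all open genes. In the windows 19 of 20 merged intervals in LOVO (95%, 75.1 to 99.9) and 19 of 25 in RKO (76.0%, 54.9 to 90.6) had a partner in the scored list, beside 89.2% and 64.9% around all genes. All 9 open genes had fewer covered bases in the scored list, with median ratios of 0.626 in LOVO and 0.556 in RKO. Over all genes open in both lists the medians were 0.589 and 0.573, with upper quartiles of 0.735 and 0.744. A narrower start site thus also arose between 2 control lists of different form.

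Olaparib in shControl was read from the scored lists, treated against untreated. All 9 open members kept the start-site interval in both lines and PARG stayed closed, beside losses of 7.37% of all open genes in LOVO and 2.38% in RKO. In the windows 21 of 22 intervals in LOVO (95.5%, 77.2 to 99.9) and 18 of 19 in RKO (94.7%, 74.0 to 99.9) were kept, beside 73.3% and 89.2% around all genes. Covered bases at the start were larger for 6 and smaller for 3 of 9 genes in LOVO (median ratio 1.08, all genes 0.988), and larger for 7 and smaller for 2 in RKO (median ratio 1.67, all genes 1.23). HPF1 had ratios of 1.76 in LOVO and 1.98 in RKO, and LIG3 1.56 and 1.85. The merged control, whose intervals are wider, gave other values: LIG3 covered 1352 bp there in LOVO, above the 854 bp with olaparib, and 1098 bp in RKO, beside 1190 bp. HPF1 covered 352 and 405 bp there, beside 522 and 445 bp with olaparib. PARP1, the drug's target, had a ratio of 0.856 in LOVO and 2.02 in RKO, and in RKO its 770 bp with olaparib stood beside 834 bp in the merged control. The lines lay on opposite sides of 1 at 5 of the 9 genes: PARP1, PARP2 (1.05 and 0.885), ADPRS (0.692 and 1.85), XRCC1 (1.27 and 0.982) and TNKS (0.963 and 1.67). This difference was not tested, and the matching share of all genes was not computed. The whole olaparib list was shorter than the scored control in LOVO, 32192 against 41431 intervals. In RKO the olaparib list was longer, 25855 against 21210. With each list cut at its median score, HPF1 counted as lost in LOVO (16.9% of all open genes were), and in RKO PARP3 counted as lost (16.6%) and HPF1 as gained (9.71% of closed genes).

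With olaparib, shMETTL3 was set against shControl to ask whether the hairpins differed in the same way under the drug. The reference is the shControl olaparib list used just above, so these comparisons share it. No member lost its start site in either line, 0 of 9 in both, beside 1.53% of all open genes in LOVO and 1.61% in RKO. PARG, the only member closed in the reference, was gained in RKO, beside 7.55% of all closed genes there. This gain was absent with 500 bp either side of the start and with lists of equal number. In the windows 20 of 21 intervals were kept in each line (95.2%, 76.2 to 99.9), beside 93.9% in LOVO and 90.0% in RKO. Of the 26 intervals that shMETTL3 with olaparib held near the 10 genes in LOVO, 4 lacked a partner in shControl with olaparib. For RKO the count was 7 of 29. The whole shMETTL3 lists were longer as well, at 51462 intervals against 32192 (LOVO) and 35455 against 25855 (RKO). The matching share around all genes was not computed. Covered bases had a median ratio of 1.02 in LOVO (0.628 to 1.22, all genes 1.09) and 0.987 in RKO (0.567 to 1.65, all genes 1.01), with members on both sides of 1 in each line. In lists of equal number, with the longer shMETTL3 list cut to its highest scores, HPF1 and LIG3 counted as lost in LOVO, beside 15.6% of all open genes, and PARP1 in RKO, beside 1539 of 10280 open genes (15%).

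Olaparib against no treatment in shMETTL3 could be compared only across the 2 forms of list. Every start site missing from untreated shMETTL3 was present with olaparib, except that of PARG in LOVO. HPF1 and LIG3 were gained in LOVO, 2 of 3 closed members, beside 34.3% of all closed genes. PARG, HPF1, ADPRS and XRCC1 were gained in RKO, 4 of 4, beside 39.3%. All 10 untreated intervals in LOVO and all 9 in RKO had partners with olaparib, beside 99.3% and 97.2% around all genes. The lists with olaparib held 26 intervals near the 10 genes in LOVO and 29 in RKO. The whole lists were also longer, 51462 against 16417 intervals in LOVO and 35455 against 6916 in RKO, and the parts of drug, form and depth cannot be told apart.

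Over the 36 separate sites that the 10 lists marked near these genes, 13 were at start sites and 23 elsewhere. Of the 23, 8 were in both lines, 5 in LOVO only and 10 in RKO only, and 8 lay within 1000 bp of a tabulated start of another gene. The 4 of them beside POLB and TNKS had no tabulated starts to be compared with. Of the 5 sites in LOVO only, 2 lay within PARG, 2 beyond TNKS and 1 before ADPRS. The 10 in RKO only included those of RFFL and ZNF575, which all 5 RKO lists held, and 6 that were in 1 or 2 lists. The same division of sites around all protein-coding genes was not computed, and the lists differ in length. The differences between the lines are therefore given as descriptions only, and not as traits of these genes.

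A wider list of 31 genes of the same biology was examined in the same way: 13 further PARP family genes, 5 for ADP-ribose removal, 4 readers and partners, 7 of single-strand break repair and 2 of NAD supply. The same start-site windows and comparisons were used. With shMETTL3 untreated, 4 of 27 open genes were lost in LOVO and 10 of 29 in RKO, with none gained, beside losses of 31.0% and 54.4% of all genes. TNKS2, the second tankyrase, was lost in both lines, although its start was closed in the scored RKO control as well. The other 3 lost in LOVO, named after their values were seen, were ADPRH, RNF146 and APTX. With olaparib in shControl, 2 of 30 were lost in LOVO, PARP8 and PARP14. Both were also named after their values were seen, and both were closed in the merged LOVO control. In RKO none of 26 was lost and 3 of 5 closed genes were gained. All 3 gained genes were already open in the merged untreated RKO control. Of all genes, 7.37% and 2.38% were lost and, in RKO, 10.8% of closed genes were gained. With olaparib in shMETTL3, 7 of 8 closed genes were gained in LOVO and 11 of 12 in RKO, beside 34.3% and 39.3% of all closed genes. Among them were TNKS2, PARP8 and PARP14 in both lines. This comparison runs from a merged to a scored list. From the merged to the scored untreated control, PARP8 was also gained in both lines and PARP14 in LOVO. In RKO, TNKS2 and PARP14 were lost between those control lists. PARP15 was open in no list. The patterns of ADPRS and XRCC1 over the 10 lists were identical, open in all but RKO shMETTL3, and were shared with 2329 other genes, among them PARP6, PARP12, PARP16 and MACROD1. That of LIG3, open in all but LOVO shMETTL3, was shared with 549 genes, among them ADPRH and RNF146.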

How the data were processed

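ATAC-seq libraries were made with a VAHTS Hyperactive kit, per the labels. The submitters' processing notes name hg38, DiffBind 3.0.15, MACS2 2.2.7.1, Bowtie2 2.4.2 and Trim Galore 0.6.6, without roles. Read shifting, filters and the way samples were combined are not stated there. From these steps the authors deposited 10 interval lists, and in 6 of them a score for each interval whose MACS2 column is not stated. Scores were ranked only within a list. Members, lists and comparisons were chosen with earlier results of these data known. All 10 members, and all 31 related genes, matched RefSeq symbols (GRCh38.p14), and 8 members had a start in the promoter table; 4195 of 20037 genes without one were tested at both ends. Windows were 1000 bp either side of the start, and 20 kb either side of the gene. Each list is named for a group, so no p-value is given, and the depth of the libraries is unknown. Genes are named by the rule that all members, and related genes with the same call in both lines, are given; 1 related gene is not reported here by name. Overlap code was tested on simulated data. Python 3.11.15, pandas 2.3.3, NumPy 2.4.6 and SciPy 1.17.1 were used.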

Additional observations from a re-analysis of the deposited data

How the results depend on the processing

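Of 108 recomputed values, 81 stayed within 1.5 times the count, or within the binomial interval, of the reported value and 27 did not. This tally compares counts and not the genes behind them, and the binomial intervals are wide. Only 1 member was closed in the deposited reference list of each comparison, so few gains were possible. None of the 27 came from using the other untreated control list as the reference or leaving out genes without a tabulated start. With 50% of the reference interval required, shMETTL3 untreated lost 4 start sites in LOVO and 9 in RKO, where 4.0% of the window intervals were kept, and shMETTL3 with olaparib lost 1 in RKO (HPF1). In lists of equal number, shMETTL3 untreated lost 1 and gained 1 start site in LOVO and lost 0 in RKO, where 87.5% of the window intervals were kept; olaparib in shControl gained 1 in LOVO; shMETTL3 with olaparib lost 2 in LOVO, with 71.4% kept, and lost 1 and gained 0 in RKO. Shorter lists change these counts by construction. With each list cut at its median score or width, shMETTL3 untreated lost 3 in LOVO (PARP1, TNKS and LIG3) and 4 in RKO (ADPRS, XRCC1, LIG3 and POLB), with HPF1 in neither because its control intervals were below the cut; olaparib in shControl lost 1 in LOVO, with 68.8% kept, and lost 1 and gained 1 in RKO, with 54.5% kept; shMETTL3 with olaparib kept 100% in LOVO, and lost 1 and gained 2 in RKO. Over gene bodies alone, olaparib in shControl and shMETTL3 with olaparib kept 100% in LOVO. With 500 bp either side, shMETTL3 with olaparib gained 0 in RKO. Over 300-base promoters, an alternative chosen after seeing the data, shMETTL3 untreated lost 5 in RKO, olaparib in shControl gained 1 (HPF1) and shMETTL3 with olaparib gained 0. Shares of all genes under these settings were computed only where they are given with the results above. Without such a share, these counts and kept shares say nothing particular to the members. For these settings the cause was not tested unless stated. No paired analysis was possible because the lists are named for groups and not for samples, and leaving out a replicate was not run for the same reason. Depth is unknown and limits every statement about a missing interval.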
